A study of Mus musculus with 12 samples.

Results

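The cells described here are the mouse aortic fibroblasts whose transcripts of the matrix and signalling genes Fbn1, Sfrp4, Postn and Cd248 outnumbered those of the adventitial genes Inmt, Clec3b, Penk and Dpep1. They were chosen by a rule on counts of unique molecular identifiers (UMIs), each of which stands for 1 captured transcript. A barcode, taken as 1 cell, needed more than 200 genes, more than 1000 UMIs and less than 10% mitochondrial UMIs. It also needed at least 3 of the fibroblast genes Pdgfra, Dcn, Lum, Col1a1, Col1a2 and Col3a1, and no UMI of Ptprc (leukocytes), Pecam1 (endothelium), Myh11 (smooth muscle) or Tnfrsf11b. Among such cells, those with at least 3 summed UMIs of the 4 markers, and more of these than of the 4 adventitial genes, were selected. The rule found 1675 cells among 38072 barcodes that passed the limits on cells and among 6045 fibroblast barcodes, which met every step but the marker counts. It used measured values, so the levels of the genes it names in the selected cells describe the choice and are no finding.

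Fibroblasts make most of the collagen, elastic fibre and proteoglycan scaffold of the arterial adventitia. Collagen chains are assembled and modified inside the cell, trimmed outside it and then crosslinked, while fibrillin microfibrils carry elastin and hold latent TGF-beta through binding proteins. Matricellular proteins such as periostin (Postn) and osteonectin (Sparc) bind this scaffold and modify how cells attach to it. Fibroblasts also secrete complement factors, protease inhibitors and chemokines that draw leukocytes to the vessel wall. Fbn1 encodes fibrillin-1, Sfrp4 a secreted protein that binds Wnt ligands, and Cd248 the transmembrane glycoprotein endosialin.

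By the labels and the study's methods, all 4 groups were male C57BL/6J ApoE−/− mice, 8 weeks old at the start and followed for 24 weeks, with 18 mice in each group. The group labelled Healthy ate a normal diet and was given saline. The AS group ate a high-fat diet with 1% cholesterol and 10% fat and was given saline. Mice of the MTZ-treated group ate the same diet and received methazolamide (MTZ, an inhibitor of carbonic anhydrases that the labels spell methoxazolamide) at 25 mg/kg into the stomach every other day for the last 12 weeks, and those of the MTZ-preventive group received it for all 24 weeks. From each group 6 aortas were pooled into 1 droplet library, so each condition has 1 sample, the variation among animals is unknown, and conditions were compared without a test. Every range in parentheses after a share or a ratio is an exact 95% interval, and it covers counting error only. A germline loss of Apoe, which the labels give for the controls too, would limit the model to that background, and the pooling hides the single animal.

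The Apoe level of 1 library did not match its label. Apoe (chr7:19696244-19701310 in GRCm38.p6), the gene that these mice lack by their labels, stood at 1296 CPM in the library labelled Healthy and 11, 4.57 and 4.62 CPM in AS, MTZ-treated and MTZ-preventive over the selected fibroblasts, where CPM are UMIs per 1e6 UMIs of the cells summed. The corresponding UMIs were 952, 3, 9 and 11. The first library is therefore called the library labelled Healthy, and every direction drawn against it compares with a library whose Apoe level does not match the genotype on its label. Some barcode sequences also occurred in more than 1 library: 2724 sequences did so among the deposited barcodes, and 18 selected cells of the library labelled Healthy, 20 of AS, 56 of MTZ-treated and 36 of MTZ-preventive carried such a sequence. Only 2 sequences were selected in more than 1 library.

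Depth was unequal. The matrices held 21857 barcodes and 42235505 UMIs in the library labelled Healthy, 6908 and 7617682 in AS, 20938 and 26196680 in MTZ-treated, and 23963 and 50769911 in MTZ-preventive. Of the fibroblast barcodes of each, 203 of 1579, 138 of 342, 664 of 1437 and 670 of 2687 were selected. The selected cells had a median of 1948, 1215, 1560.5 and 1888.5 UMIs and together held 734782, 273097, 1971505 and 2378650. A count of 0 over the selected cells of AS still allows up to 10.99 CPM, against 4.08, 1.52 and 1.26 CPM in the library labelled Healthy, MTZ-treated and MTZ-preventive, so low genes are least certain in AS. As a measure of free RNA in the droplets, levels were read beside those of 696, 324, 992 and 1495 endothelial barcodes of the same libraries. These had at least 3 of Cdh5, Kdr, Cldn5, Egfl7, Tie1 and Pecam1, and no Ptprc, Myh11 or Pdgfra. A fibroblast level at or below the endothelial one cannot be told from background. The summed immediate early, interferon-stimulated, heat shock and MHC class I genes were below the endothelial level in every library.

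Cells of this kind go by the name of matrix fibroblasts with Fbn1 and Postn, but here Sfrp4 carried most of the signal. Sfrp4 (chr13:19623175-19632825 in GRCm38.p6) made up 64.8% of the marker UMIs in the library labelled Healthy, 73.1% in AS, 82.4% for MTZ-treated and 78.2% for MTZ-preventive. It was the most counted marker in 1240 of the 1675 cells, or 74.0%. Fbn1 (chr2:125300594-125506485) led in 181 cells, Postn (chr3:54359267-54391041) in 126 and Cd248 (chr19:5068078-5070640) in 38, and 90 had a tie. Both Fbn1 and Postn were detected in 500 cells (29.9%), neither in 493, and 332 cells were selected on Sfrp4 alone. The data therefore go against the name, and the cells are called the selected fibroblasts.

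After each barcode was thinned to 1000 UMIs, Sfrp4 was detected in 64% of the selected cells of the library labelled Healthy, 78.3% in AS, 93.1% for MTZ-treated and 81.5% for MTZ-preventive, against 4.31%, 9.26%, 14.6% and 9.16% of endothelial barcodes. Before thinning these shares of selected cells were 77.3%, 81.9%, 96.4% and 91.5%, and the endothelial barcodes had a median of 2931, 1448.5, 1752 and 2334 UMIs. Fbn1 was detected in 43.8%, 51.4%, 28.2% and 34.8% of thinned selected cells and in 4.17%, 5.25%, 5.04% and 4.82% of endothelial barcodes, and before thinning in 58.6%, 60.9%, 43.1% and 53.7% of the selected cells. For Postn the thinned shares were 37.9%, 18.8%, 40.5% and 34.9%, against 4.17%, 2.47%, 4.64% and 3.41%, and 57.1%, 26.8%, 53.3% and 48.7% before thinning. AS had the smallest share of cells with Postn. Of the adventitial genes, Clec3b was also present in most selected cells, with a UMI in 74.9%, 63.0%, 86.9% and 78.7% before thinning. The cells were thus defined by the balance of the sums and not by the absence of Clec3b.

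**Figure D1:**
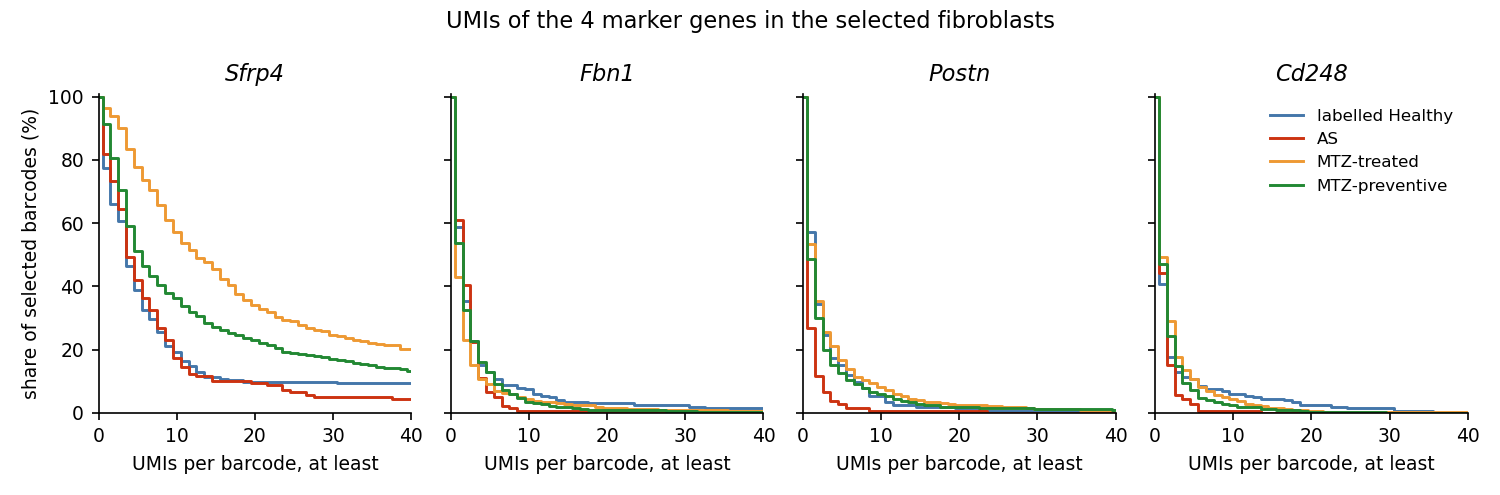
Share of selected fibroblasts (vertical axis, %) with at least a given number of UMIs of Sfrp4, Fbn1, Postn or Cd248 (horizontal axis), 1 line per library. The Sfrp4 line of MTZ-treated lies to the right of the others, with a median of 12 UMIs per cell against 3 in the library labelled Healthy, 3 in AS and 5 in MTZ-preventive.

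The threshold cut through a continuous range. The summed marker count had a median of 7 UMIs per selected cell in the library labelled Healthy, 6 in AS, 16 for MTZ-treated and 9 for MTZ-preventive, beside medians of 3, 1, 5 and 2 for the 4 adventitial genes. Just inside the limit, with exactly 3 marker UMIs, were 32, 21, 37 and 87 cells. Just outside it, with 2 marker UMIs and otherwise eligible, were 40, 27, 40 and 96 barcodes, and a further 17, 10, 18 and 37 had equal sums of both gene sets. The median depth of the cells just inside was 1403.5, 1376, 1311 and 1476 UMIs, and of those just outside 1399.5, 1307, 1531.5 and 1367.5. For MTZ-treated the barcodes just outside were thus deeper, and in the other libraries both sides were closer in depth.

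The selected fibroblasts were 12.9% (95% Clopper-Pearson interval 11.2 to 14.6) of fibroblast barcodes in the library labelled Healthy, 40.4% (35.1 to 45.8) in AS, 46.2% (43.6 to 48.8) for MTZ-treated and 24.9% (23.3 to 26.6) for MTZ-preventive. The share in AS was 3.14-fold (2.51 to 3.92) that in the library labelled Healthy, or 4.95-fold (4.20 to 5.83) with looser limits on cells. MTZ-treated and AS differed by a ratio of 1.15 (0.952 to 1.39), within counting error. The ratio was beyond counting error at 1.30 (1.07 to 1.59) after thinning to 1000 UMIs, 1.33 (from 1.18 at the lower bound) with looser limits on cells, 1.51 (1.21 to 1.90) with at least 5 marker UMIs and 1.47 (1.22 to 1.78) over all kept barcodes. The share in MTZ-preventive was 0.618-fold (0.514 to 0.748) that in AS and 0.540-fold (0.484 to 0.602) that in MTZ-treated. With every barcode thinned to 1000 UMIs, the shares were 10.5%, 35.3%, 45.9% and 23.9%. The sets are not comparable for Sfrp4 itself, because a library with more Sfrp4 passes more cells through the rule.

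Sfrp4 over all fibroblast barcodes, selected or not, stood at 1085 CPM in the library labelled Healthy and 2037, 6079.7 and 2083 CPM in AS, MTZ-treated and MTZ-preventive. Fbn1, in contrast, stood at 451, 456, 458 and 279 CPM and Postn at 291, 183, 622 and 251 CPM in the same order. When the rule was applied to Fbn1, Postn and Cd248 without Sfrp4, an alternative chosen after seeing the data, 77, 51, 123 and 239 cells remained, or 4.88% (3.87 to 6.06), 14.9% (11.3 to 19.1), 8.56% (7.16 to 10.1) and 8.89% (7.84 to 10.0) of fibroblast barcodes. AS then had the highest share, with 3.06-fold that in the library labelled Healthy, while MTZ-treated was at 0.574-fold and MTZ-preventive at 0.597-fold of AS. The position of MTZ-treated beside AS thus depended on whether Sfrp4 was counted, while MTZ-preventive was below AS either way. The rule also weighs the markers against the adventitial genes. Over all fibroblast barcodes Clec3b stood at 4405, 1698, 5269 and 2725 CPM and Cd248 at 406, 252, 497 and 289 CPM, in the order of the libraries. AS was lowest in both, and the part of these genes in the shares was not tested.

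**Figure D2:**
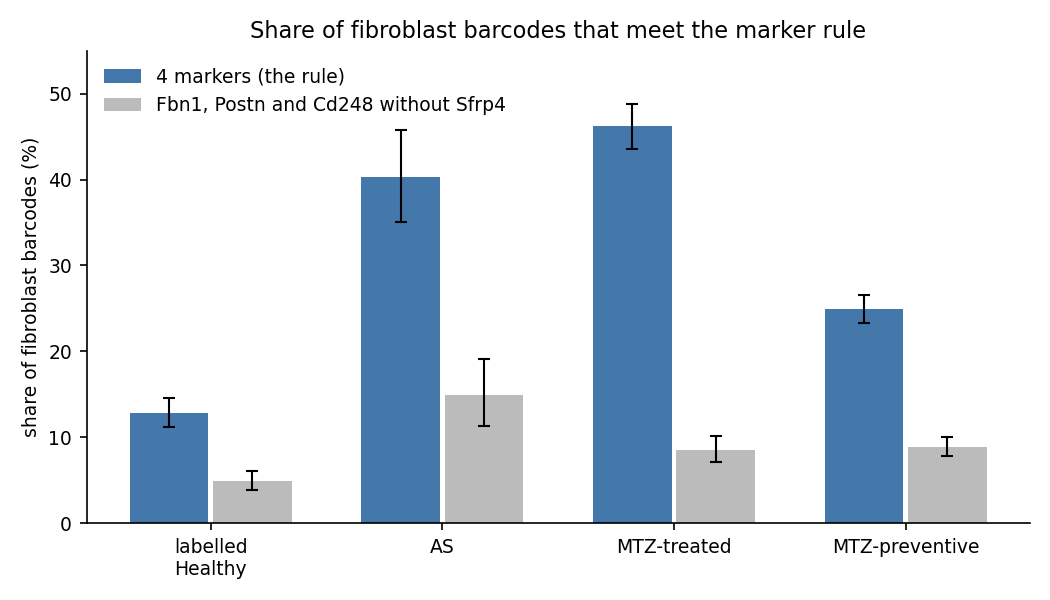
Share of fibroblast barcodes (vertical axis, %) that met the rule with 4 markers (blue) and with Fbn1, Postn and Cd248 alone (grey) in each library, with 95% Clopper-Pearson intervals for counting error. The blue bars are lowest in the library labelled Healthy at 12.9% and highest in MTZ-treated at 46.2%, and the grey bars are highest in AS at 14.9%.

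Ribosomal, iron storage and secreted matrix transcripts were among those with the most UMIs in the selected fibroblasts. Apart from the rule's genes Col3a1, Col1a1, Sfrp4 and Dcn, the first 15 genes by mean CPM held Sparc, Igfbp7 (a secreted binding protein of insulin-like growth factors), Cst3 (a secreted protease inhibitor), Fth1 (the ferritin heavy chain), Vim, S100a6, Mt1, Malat1, Rpl13 and Rps2. AY036118, a ribosomal RNA-derived transcript, led the order at 11318 CPM in the library labelled Healthy and 38657, 15743 and 12989 CPM in AS, MTZ-treated and MTZ-preventive. Sparc stood at 15789.7 CPM in the library labelled Healthy and 5295, 10942 and 5654 CPM in AS, MTZ-treated and MTZ-preventive, so that the library labelled Healthy was highest and the AS and MTZ-preventive libraries lowest. Igfbp7 stood at 5527, 5247, 7088 and 5422 CPM in the same order, and Vim, the intermediate filament of mesenchymal cells, at 4908, 4643, 5866 and 6289.7 CPM. Mgp, a matrix protein that holds back calcification, stood at 3269, 2589, 1161 and 2984 CPM.

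The selected fibroblasts were not uniform. Among 938 genes with a mean of at least 0.1 UMI per thinned cell, the variance over the mean had a median of 1.08, close to that of random counting. It was highest for AY036118 (60.5, median over the 4 libraries), the adipocyte gene Cfd (18.6), Mgp (12.3), Cst3 (7.21) and Mt1 (6.42). Sparc (5.59), the chemokine gene Ccl2 (5.17), the lipid carrier gene Fabp4 (4.62), Fn1 (4.27) and Igfbp7 (4.18) followed. Cfd, Mgp, Cst3, Sparc, Ccl2, Fn1 and Igfbp7 encode secreted proteins, whose share among all ranked genes was not counted. Genes of the rule were left out of this order, and among them Sfrp4 had a value of 7.01.

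Cells led by Sfrp4 (121, 88, 581 and 450 per library) were set beside the other selected cells (82, 50, 83 and 220). Among 1113 genes, 1 was past 2-fold higher and 1 past 2-fold lower in the Sfrp4-led cells of all 4 libraries, with 10 CPM added. The higher gene was Mmp3, a secreted protease of matrix proteins, at 227 against 34.6 CPM in the library labelled Healthy, 195 against 89 CPM in AS, 395 against 55.6 CPM for MTZ-treated and 1091 against 487 CPM for MTZ-preventive. In AS its log2 ratio, 1.05, lay just past 2-fold. The other selected cells of AS held 78681 UMIs together, so their Mmp3 level rested on few UMIs. Cd55, a surface inhibitor of complement that is also a marker of adventitial fibroblasts, was the lower gene, at 82.1 against 319 CPM in the library labelled Healthy, 97.7 against 483 CPM in AS, 106 against 419 CPM for MTZ-treated and 56.7 against 159 CPM for MTZ-preventive. Pltp (a phospholipid transfer protein), Serpinf1, Pcolce2 (an enhancer of collagen trimming), Fbln1, Gas1 and Ltbp4 were also above the other cells in every library, though not past 2-fold in all 4, and Anxa5, Col4a1 (a basement membrane collagen) and Cald1 below them. These groups came from counts of the same cells, and their genes are a description. Mmp3, Cd55 and the genes of this last group were picked by this ordering, after their values were seen.

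A further description set the selected fibroblasts beside the fibroblasts in which Inmt, Clec3b, Penk and Dpep1 had at least 3 UMIs and outnumbered the markers (766, 50, 533 and 1194 cells), called the Clec3b fibroblasts. The rule used this contrast, so its values and counts are a description, from which nothing is read. In the 3 libraries on high-fat diet the type I and III collagen genes of the rule were higher in the selected cells than in the Clec3b fibroblasts, and in the library labelled Healthy they were lower. Col1a1, a chain of fibrillar type I collagen and a gene of the rule, was at 9704 against 13568 CPM in the library labelled Healthy, 3610.4 against 1066 CPM in AS, 8216 against 3058 CPM for MTZ-treated and 3738 against 1183 CPM for MTZ-preventive. Col3a1, of fibrillar type III collagen, was at 8547 against 11763 CPM, 5225 against 1302 CPM, 9561 against 3282 CPM and 4561 against 1339 CPM in the same order. Sparc followed them, at 15789.7 against 17133 CPM, 5295 against 2253 CPM, 10942 against 5605 CPM and 5654 against 2602 CPM, a ratio of 0.922-fold (0.903 to 0.941) in the library labelled Healthy and of 2.35-fold (2.08 to 2.66) in AS.

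The collagen chains that the rule did not name summed to 5255 against 5144 CPM in the library labelled Healthy, 4156 against 2160.2 CPM in AS, 5066 against 2774 CPM for MTZ-treated and 3713 against 1812 CPM for MTZ-preventive. Of those with at least 100 CPM, 0 of 11 were past 2-fold higher than in the Clec3b fibroblasts of the library labelled Healthy, 6 of 10 in AS, 4 of 8 for MTZ-treated and 5 of 8 for MTZ-preventive, beside 2.48%, 5.89%, 2.4% and 3.46% of all genes at this limit. Past 2-fold lower were 0 of these chains, beside 1.48%, 9.57%, 2.03% and 2.19% of all genes. Their median log2 ratios were 0.17, 1.52, 0.97 and 1.28, and those of all genes 0.08, -0.14, -0.06 and 0.05. Thinning every cell to 1000 UMIs brought the 3 high-fat medians to 0.90, 0.61 and 1.17. The Clec3b fibroblasts of AS were 50 cells, and deeper than the selected ones, with a median of 1695 UMIs against 1215. In MTZ-treated the medians were 2180 and 1560.5, and in MTZ-preventive 2406.5 and 1888.5, whereas in the library labelled Healthy the Clec3b fibroblasts were the shallower ones, at 1826 against 1948. Genes of other cells moved with this contrast. In the library labelled Healthy, 3 of 3 tested genes of a cell type list that is not reported by name were past 2-fold higher in the selected cells. Past 2-fold higher in the selected cells were 4 of 4 tested adipocyte genes in AS, 3 of 3 for MTZ-treated and 0 of 3 for MTZ-preventive, while 2 of 3 were past 2-fold lower in the library labelled Healthy. Of 2 smooth muscle genes, 1, 2, 1 and 0 were past 2-fold higher in the order of the libraries, and of the neutrophil genes 3 of 3 were so in AS. Their part in the collagen values was not tested. A contrast that goes with the diet and one that goes with the library labelled Healthy cannot be told apart.

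Other genes differed from the Clec3b fibroblasts in the same direction in all 4 libraries. Fn1, the adhesive matrix protein fibronectin, was at 2752 against 1535 CPM, 4401 against 1445 CPM, 4254 against 1939 CPM and 2739 against 874 CPM, ratios of 1.79, 3.05, 2.19 and 3.13. Bgn, the small proteoglycan biglycan, had ratios of 1.53, 1.89, 1.74 and 1.92. The calcium-binding protein gene S100a4 had ratios of 3.64, 2.03, 1.93 and 3.56, and Thy1, Tppp3, Actn1 and Tpm1 were also above 1 in every library. None of 1112 genes (0%) was past 2-fold higher in all 4 libraries and 4 (0.36%) were past 2-fold lower, namely Ccl11, C7, C3 and Cdkn1c. Ccl11, the chemokine eotaxin that attracts eosinophils, was lower by 4.63-fold (3.23 to 6.85), 4.49-fold (2.06 to 10.6), 7.93-fold (6.05 to 10.6) and 6.38-fold (5.35 to 7.65). The terminal complement component gene C7 and the central one, C3, were lower by 3.99- and 3.63-fold in the library labelled Healthy and by 5.61- and 2.2-fold in AS. Gsn (an actin-severing protein with a secreted form), Fbln1 and Ogn (the small proteoglycan mimecan) were below the Clec3b level in every library as well.

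**Figure D3:**
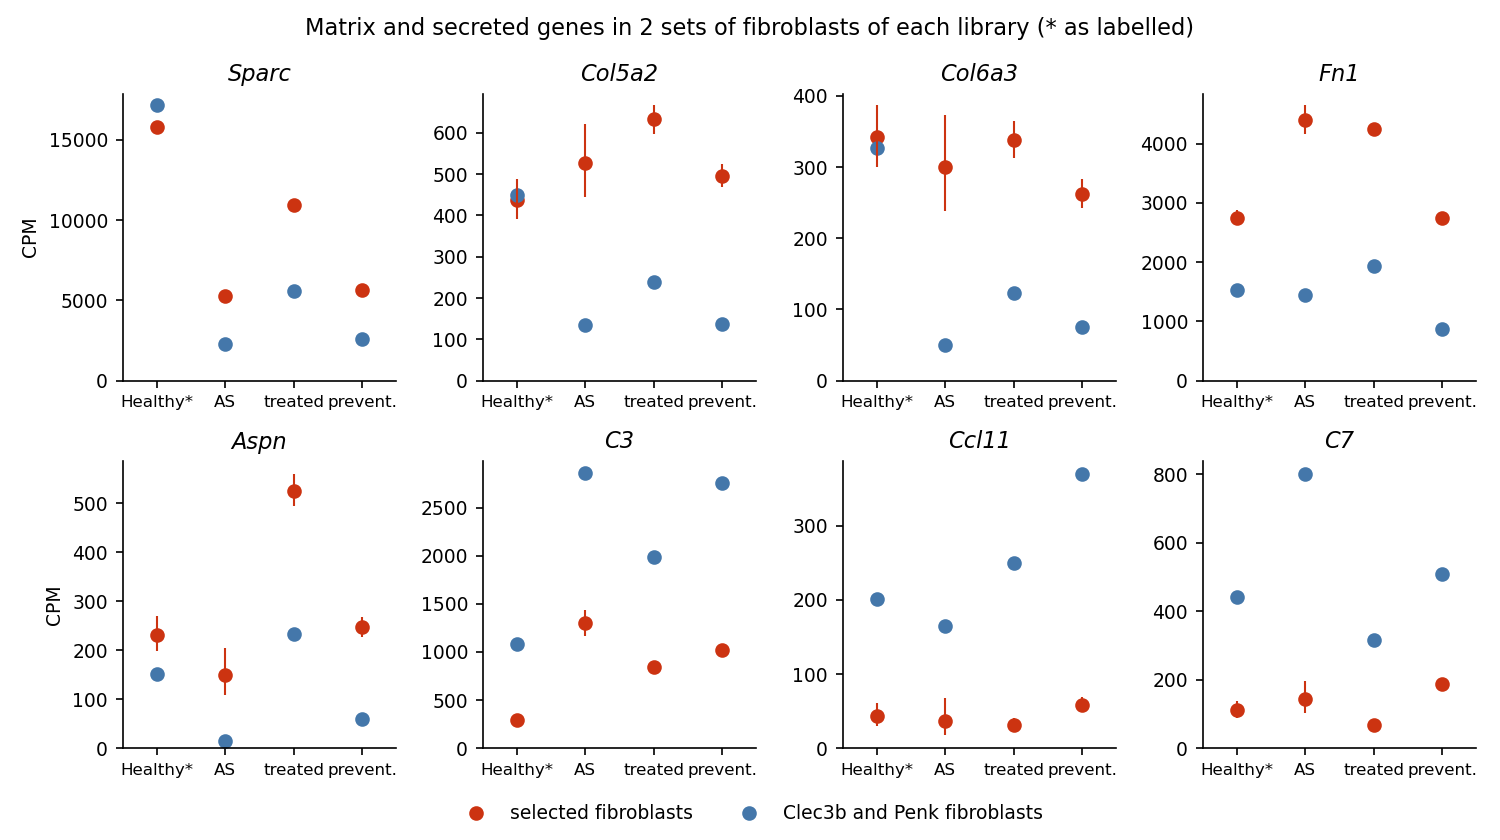
Level (vertical axis, CPM) of 8 genes in the selected fibroblasts (red, with exact Poisson intervals) and the Clec3b fibroblasts (blue, drawn without intervals) of each library. Sparc, Col5a2 and Col6a3 of the selected cells lie above the blue points in the 3 high-fat libraries. In the library labelled Healthy Sparc lies below and the ratios of Col5a2 and Col6a3, 0.969 (0.852 to 1.10) and 1.04 (0.901 to 1.21), are within counting error. Fn1 and Aspn lie above the blue points and C3, Ccl11 and C7 below them in all 4, and the blue point of Aspn in AS rests on 2 UMIs. Col5a2 and Col6a3 were chosen for the plot after their values were seen.

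The first comparison across libraries asked how the selected fibroblasts of AS differed from those of the library labelled Healthy. Sparc, the microfibril gene Mfap4 and several proteoglycan genes were lower in AS, and the secreted genes C3, Ccl2, Timp1 and Prg4 were higher there, above the level of endothelial barcodes. Of 1586 genes that reached 100 CPM in AS or the library labelled Healthy, 74 (4.67%) were past 2-fold higher in AS and 159 (10%) past 2-fold lower, with 1 CPM added. With trimmed mean of M values (TMM) factors in place of totals the split was 97 to 115, and the median log2 ratio of all genes was 0.09 in place of -0.10. The 3 comparisons across libraries share the AS library. For the lists of genes below, the count past 2-fold, the median or both are given, to be read beside these values for all genes.

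In the elastic fibre and microfibril list, 17 of 20 genes reached 100 CPM, 1 of them past 2-fold higher and 5 past 2-fold lower, with a median log2 ratio of -0.60. For cells selected without Sfrp4 these were 3 higher and 3 lower of 17, with a median of -0.17 beside -0.16 for all genes. Eln, which encodes elastin, stood at 1494 CPM in the library labelled Healthy and 282, 97.4 and 129 CPM in AS, MTZ-treated and MTZ-preventive. The library labelled Healthy was highest, but endothelial barcodes stood at 768, 172, 384 and 261 CPM, and 1 cell held 42.9% of the Eln UMIs of AS. Mfap4, a glycoprotein of the microfibrils, stood at 1086 CPM in the library labelled Healthy and 25.6, 117 and 79.9 CPM in AS, MTZ-treated and MTZ-preventive, and AS was lower than the library labelled Healthy by 42.4-fold (20.5 to 106). Mfap5 stood at 2086, 1285, 2223 and 1561 CPM and Fbln2, a fibulin, at 401, 414, 521 and 473 CPM. Fbln1, a fibulin of elastic fibres and basement membranes, stood at 412 CPM in the library labelled Healthy and 187, 235 and 225 CPM in AS, MTZ-treated and MTZ-preventive, so that all 3 high-fat libraries were below the library labelled Healthy.

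Among the other collagen chains, 12 of 16 genes reached 100 CPM, 1 of them past 2-fold higher and 2 past 2-fold lower, with a median log2 ratio of -0.23. Col14a1, which associates with collagen fibrils, stood at 799 CPM in the library labelled Healthy and 699, 1102 and 512 CPM in AS, MTZ-treated and MTZ-preventive, and Col6a1, of the beaded filaments around cells, at 611, 399, 623 and 462 CPM. Both differed by less than Sparc, which was lower in AS by 2.98-fold (2.82 to 3.15). Among the proteoglycans, 13 of 16 genes reached 100 CPM, 2 of them past 2-fold higher and 4 past 2-fold lower, with a median log2 ratio of -0.62. Bgn stood at 3431 CPM in the library labelled Healthy and 1728, 2092 and 3175 CPM in AS, MTZ-treated and MTZ-preventive, with AS lowest. Fmod (fibromodulin, which binds collagen fibrils), Gpc3 and Smoc2 were chosen after their values were seen. Fmod stood at 286, 3.66, 6.59 and 20.6 CPM, Gpc3 at 144, 14.6, 72 and 90 CPM and Smoc2 at 188, 11, 23.8 and 71 CPM. All 3 were highest in the library labelled Healthy. Their AS values were the lowest, but those of Fmod and Smoc2 lay at or under the AS limit for a count of 0. The place of AS below MTZ-treated is therefore uncertain for Fmod and Smoc2. Among the collagen processing enzymes, 10 of 16 genes reached 100 CPM, 0 of them past 2-fold higher and 3 past 2-fold lower, with a median log2 ratio of -0.46. With the cells selected without Sfrp4, the AS to Healthy log2 ratio of Col1a1 was -0.06 in place of -1.43, that of Eln -0.42 in place of -2.40 and that of Sparc -0.91 in place of -1.58, so that none of the 3 was past 2-fold.

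In the complement list, 9 of 11 genes reached 100 CPM, 3 of them past 2-fold higher and 1 past 2-fold lower, with a median log2 ratio of 0.42. C3 stood at 297 CPM in the library labelled Healthy and 1296, 845 and 1015 CPM in AS, MTZ-treated and MTZ-preventive, above the 26, 216, 79.3 and 229 CPM of endothelial barcodes, and was higher in AS by 4.37-fold (3.68 to 5.2). C4b, an early component of the classical pathway, was chosen after its values were seen and stood at 103, 363, 377 and 269.9 CPM. Among the chemokine and NF-kB feedback genes, 11 of 23 genes reached 100 CPM, 5 of them past 2-fold higher and 1 past 2-fold lower, with a median log2 ratio of 0.89. Cxcl13 and Cxcl2 reached 100 CPM in AS but not in the library labelled Healthy. This favoured the higher direction, so nothing is read from this count and median. Ccl2, which attracts monocytes, stood at 114 CPM in the library labelled Healthy and 535, 465 and 1054 CPM in AS, MTZ-treated and MTZ-preventive, and AS was higher by 4.68-fold (3.55 to 6.19). Endothelial barcodes held 139.6, 116, 309 and 173 CPM of Ccl2, so that the fibroblast level exceeded theirs in the 3 high-fat libraries. Cxcl1, an attractant of neutrophils, stood at 422, 245, 228 and 621 CPM, and Nfkbia, the inhibitor that NF-kB induces, at 928, 1337, 886 and 1457 CPM.

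Timp1, the secreted inhibitor of matrix metalloproteinases, stood at 178 CPM in the library labelled Healthy and 1230.3, 1091 and 2661 CPM in AS, MTZ-treated and MTZ-preventive. It was higher in AS than in the library labelled Healthy by 6.9-fold (5.62 to 8.51), and endothelial barcodes held at most 125 CPM. Serpina3n, a secreted inhibitor of serine proteases, stood at 43.6 CPM in the library labelled Healthy and 637, 203 and 1170.4 CPM in AS, MTZ-treated and MTZ-preventive, against 6.41, 321, 49.7 and 309.7 CPM in endothelial barcodes. Prg4, the lubricating proteoglycan lubricin, stood at 10.9 CPM in the library labelled Healthy and 707, 255 and 551 CPM in AS, MTZ-treated and MTZ-preventive. It is also a mesothelial marker, and the other genes of that list were near 0 in the selected cells, whose list sum was 19.1, 707, 260.2 and 569.7 CPM. AS exceeded the library labelled Healthy by 64.9-fold (32.3 to 152) in Prg4, with 8 UMIs in the latter.

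Some genes that were far higher in AS were below the level of endothelial barcodes, or close to it. Hp (haptoglobin, an acute phase protein) stood at 12.2 CPM in the library labelled Healthy and 1077, 81.2 and 730.2 CPM in AS, MTZ-treated and MTZ-preventive but at 4.27, 1885, 9.24 and 2195 CPM in endothelial barcodes. The neutrophil gene S100a9 stood at 0, 773, 33.5 and 24.8 CPM, against 8.55, 975, 6.16 and 14 CPM, and the metallothionein gene Mt1, which binds zinc, at 1414, 8865, 1812 and 8476 CPM, against 529, 8628, 951 and 5230.4 CPM. Of the 8 highest ratios, S100a9, S100a8, Retnlg and Wfdc17 are genes of neutrophils or other myeloid cells, and 69.9% of the UMIs of Spp1, the gene of osteopontin, lay in 1 cell of AS. Saa3, an acute phase protein made outside the liver, stood at 0 CPM in the library labelled Healthy and 143, 6.59 and 182 CPM in AS, MTZ-treated and MTZ-preventive, beside 0, 2182, 25.6 and 118 CPM in the Clec3b fibroblasts. In the acute phase list, 4 of 12 genes reached 100 CPM, 4 of them past 2-fold higher and 0 past 2-fold lower, with a median log2 ratio of 5.92. Of these Hp and Lcn2 were below the endothelial level in AS. Hp, Saa3, Serpina3n and Lcn2 all reached 100 CPM in AS but not in the library labelled Healthy. The limit thus favoured genes that are high in AS, and nothing is read from this count and median. The metallothionein list had 2 of 2 genes past 2-fold higher.

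Among the lowest ratios were Cd79a, a gene of B cells, and Apoe. Sfrp5, a relative of Sfrp4, stood at 113 CPM in the library labelled Healthy and 0, 0.507 and 3.36 CPM in AS, MTZ-treated and MTZ-preventive, and F3, the initiator of blood clotting known as tissue factor, at 269, 0, 36.5 and 47.1 CPM. Both were at 0 in AS, which is at least 10.3- and 24.5-fold lower when the 0 is put at its limit of 3 UMIs. Sfrp2, a further member of the family, stood at 1298 CPM in the library labelled Healthy and 458, 1275 and 530.1 CPM in AS, MTZ-treated and MTZ-preventive, which placed AS and MTZ-preventive below the other libraries. Its AS to Healthy log2 ratio was under 2-fold with equal weight for every cell (-0.84) and without Sfrp4 in the rule (-0.15). Sfrp1 stood at 118, 80.6, 114 and 79 CPM. Among the contractile genes, 8 of 11 genes reached 100 CPM, 0 of them past 2-fold higher and 0 past 2-fold lower, with a median log2 ratio of 0.28.

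The second comparison set MTZ-treated against AS. Of 1427 genes, 56 (3.92%) were past 2-fold higher and 59 (4.13%) past 2-fold lower, and with TMM factors the split was 88 to 43, while the median log2 ratio of all genes was 0.27 in place of 0.11. Sparc was higher in MTZ-treated by 2.07-fold (1.96 to 2.18) and Mfap4 by 4.55-fold (2.17 to 11.4), both in the direction of the library labelled Healthy. Mfap4 rested on 7 UMIs in AS, and its 117 CPM in MTZ-treated remained far below the 1086 CPM of the library labelled Healthy. Eln, of the same list as Mfap4, went the other way, from 282 CPM in AS to 97.4 CPM in MTZ-treated. As given above, 1 cell held much of its AS count. Sparc was under 2-fold with equal weight for every cell (log2 ratio 0.72) and without Sfrp4 in the rule (0.83), in place of 1.05. Igfbp5, a binding protein of insulin-like growth factors, stood at 999 CPM in the library labelled Healthy and 205, 663 and 544 CPM in AS, MTZ-treated and MTZ-preventive, and MTZ-treated was above AS by 3.23-fold (2.47 to 4.3), or by a log2 ratio of 0.89 in place of 1.69 with equal weight for every cell. Among the collagen processing enzymes, 10 of 16 genes reached 100 CPM, 1 of them past 2-fold higher and 0 past 2-fold lower, with a median log2 ratio of 0.67. In the elastic fibre list, 16 of 20 genes reached 100 CPM, 3 of them past 2-fold higher and 4 past 2-fold lower, with a median log2 ratio of 0.31, which was -0.00204 with equal weight for every cell and -0.0865 without Sfrp4 in the rule. Cthrc1, a secreted protein of collagen-producing cells, and Comp, which binds collagen, were chosen after their values were seen. Cthrc1 stood at 43.6 CPM in the library labelled Healthy and 135, 419 and 268 CPM in AS, MTZ-treated and MTZ-preventive, above AS in MTZ-treated by 3.1-fold (2.23 to 4.43). Comp stood at 65.3 CPM in the library labelled Healthy and 234, 327 and 314 CPM in AS, MTZ-treated and MTZ-preventive, with the library labelled Healthy lowest.

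The highest ratio was that of Ecrg4, a secreted peptide precursor, which stood at 27.2 CPM in the library labelled Healthy and 3.66, 171 and 53.4 CPM in AS, MTZ-treated and MTZ-preventive and rested on 1 UMI in AS, a ratio of 46.8-fold (8.35 to 1855). Clec11a, a secreted growth factor of bone-forming cells, stood at 204 CPM in the library labelled Healthy and 29.3, 175 and 92.5 CPM in AS, MTZ-treated and MTZ-preventive, which was 5.97-fold (3 to 13.9) that of AS. Pthlh, which encodes the parathyroid hormone-related protein, stood at 85.7, 33, 147 and 51.7 CPM, and the monocyte chemokine gene Ccl8 at 46.3, 33, 125 and 77.8 CPM. Thrsp and Car3, both genes of fat cells, were also among the 8, and 33.7% of the Car3 UMIs of MTZ-treated lay in 1 cell. Car3 was the only carbonic anhydrase tested in the comparison, at 28.6, 40.3, 254 and 137 CPM in the selected cells and 94, 294, 32.3 and 266 CPM in endothelial barcodes. When cells with over 1% of UMIs of other cell lists were left out, the log2 ratio of Car3 was -0.48 and that of Thrsp -1.31, the opposite sign.

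On the lower side, Cxcl13, which draws B cells to lymphoid tissue, stood at 2.72 CPM in the library labelled Healthy and 176, 10.1 and 979 CPM in AS, MTZ-treated and MTZ-preventive and was lower in MTZ-treated than in AS by 17.3-fold (10.1 to 30.8). In the Clec3b fibroblasts it stood at 17.8 CPM in the library labelled Healthy and 5594, 276 and 3989.7 CPM in AS, MTZ-treated and MTZ-preventive, above the selected cells in every library. Prg4 was lower by 2.77-fold (2.33 to 3.28) and Serpina3n by 3.13-fold (2.61 to 3.75). In the acute phase list, 4 of 12 genes reached 100 CPM, 0 of them past 2-fold higher and 4 past 2-fold lower, with a median log2 ratio of -3.07. Hp, Saa3 and Lcn2 reached 100 CPM in AS but not in MTZ-treated, which favoured the lower direction, so nothing is read from this count and median. Ccl2 at 465 CPM was within counting error of AS, with a ratio of 0.87-fold (0.73 to 1.04), and Timp1 was just beyond it, with 0.887-fold (0.79 to 0.998). The log2 ratio of Timp1, -0.17, was 0.18 with at least 5 marker UMIs and -0.81 with equal weight for every cell. S100a8, S100a9, Retnlg and Wfdc17 filled 4 of the 8 lowest places. In AS they were at 626, 773, 377 and 198 CPM in the selected cells and at 777, 975, 309.9 and 234 CPM in endothelial barcodes.

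The third comparison set MTZ-preventive against AS. Of 1457 genes, 56 (3.84%) were past 2-fold higher and 28 (1.92%) past 2-fold lower, with a median log2 ratio of 0.09, and with TMM factors the split was 70 to 27 and the median 0.15. Ccl2 exceeded AS by 1.97-fold (1.67 to 2.35), Timp1 by 2.16-fold (1.94 to 2.42), Serpina3n by 1.84-fold (1.58 to 2.15) and Cxcl13 by 5.57-fold (4.19 to 7.58). Among the chemokine and NF-kB feedback genes, 15 of 23 genes reached 100 CPM, 5 of them past 2-fold higher and 2 past 2-fold lower, with a median log2 ratio of 0.75. Only 11 had reached it in AS or the library labelled Healthy, so some passed the limit through MTZ-preventive alone. That favoured the higher direction, and nothing is read from the count and median. Cxcl2, a chemokine gene that attracts neutrophils, was past 2-fold lower. The ratio of Timp1 was under 2-fold when every cell was given equal weight, with a log2 ratio of 0.30 in place of 1.11.

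Prg4, Hp and Mt1 differed from AS by less, with ratios of 0.779-fold (0.67 to 0.911), 0.678-fold (0.599 to 0.77) and 0.956-fold (0.917 to 0.998). In the elastic fibre list, 14 of 20 genes reached 100 CPM, 1 of them past 2-fold higher and 1 past 2-fold lower, with a median log2 ratio of 0.03. Among the other collagen chains, 10 of 16 genes reached 100 CPM, 0 of them past 2-fold higher and 0 past 2-fold lower, with a median log2 ratio of -0.27. Mmp3, picked from the description of Sfrp4-led cells, stood at 159 CPM in the library labelled Healthy and 165, 336 and 881 CPM in AS, MTZ-treated and MTZ-preventive, highest in MTZ-preventive. Genes of other cells led the order. Jchain, of antibody-secreting cells, had 946 UMIs of which 99.4% lay in 1 selected cell, and 78.5% of the UMIs of Ccl5, a chemokine of T cells, lay in 1 cell. Pcsk1n, Prph, Dbh and Npy, genes of sympathetic neurons, had UMIs in 62, 62, 47 and 70 of the 670 cells. On the lower side stood the myeloid genes Wfdc17, Retnlg, S100a8, S100a9 and Alox5ap and the neutrophil chemokine gene Cxcl2, at 17.7, 703, 109 and 129 CPM.

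**Figure D4:**
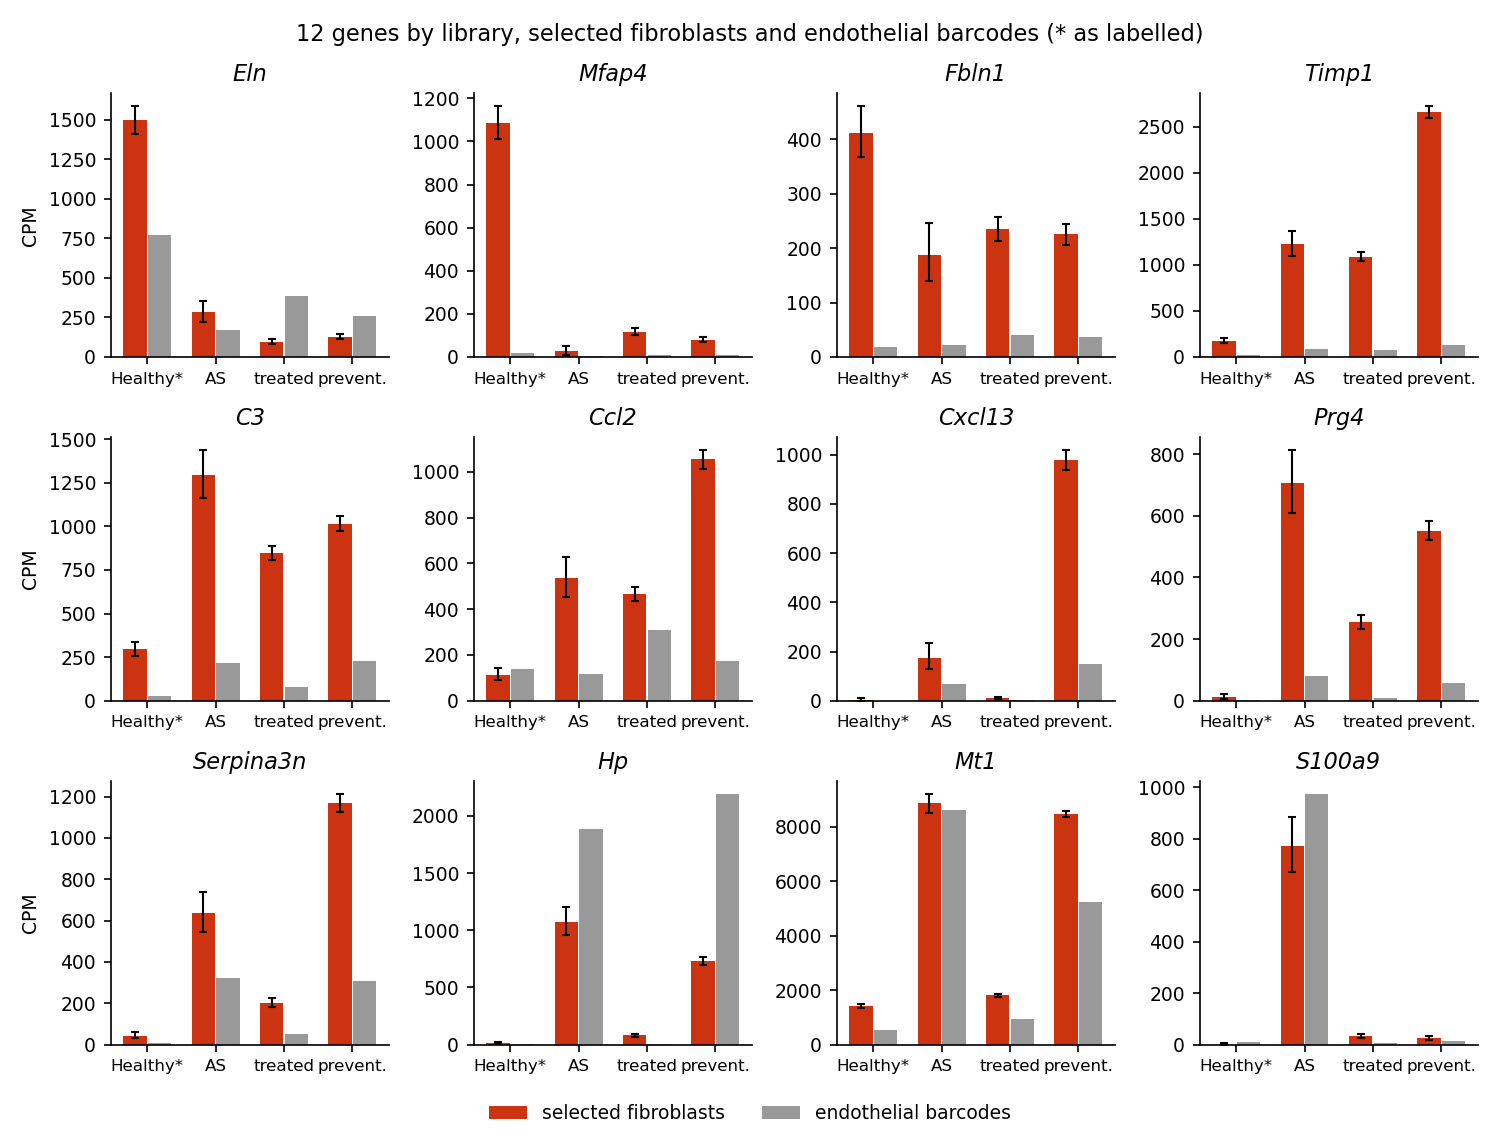
Level (vertical axis, CPM) of 12 genes in the selected fibroblasts (red, with exact Poisson intervals) and in endothelial barcodes (grey, drawn without intervals) of each library. Timp1, C3, Cxcl13, Prg4 and Serpina3n stand above the grey bars in the high-fat libraries wherever the gene is high, whereas the grey bars of Hp, Mt1 and S100a9 in AS are close to the red ones or above them.

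Transcripts of other cells moved with these comparisons, and their part in them was not tested. A cell type list that is not reported by name had 3 of 3 tested genes past 2-fold lower in AS than in the library labelled Healthy. The 7 neutrophil genes summed to 5.44, 1842, 65.4 and 43.7 CPM in the selected cells and 17.5, 2189, 9.24 and 33.4 CPM in endothelial barcodes, the most abundant being S100a9. The 11 adipocyte genes, led by Fabp4, summed to 763, 4094, 2345 and 3271 CPM, against 11888, 20651, 6421 and 18968 CPM. Sums of the B cell list were 1074, 80.6, 202 and 851 CPM, against 1162, 152, 281 and 725 CPM. Macrophage genes summed to 28.6, 377, 309 and 38.7 CPM, T cell genes to 119.8, 11, 10.7 and 26.5 CPM, red blood cell genes to 13.6, 289, 58.8 and 11.8 CPM and plasma cell genes to 149.7, 183, 141 and 660.0 CPM. The smooth muscle list, led by genes that myofibroblasts share, summed to 1032, 1307, 1116 and 734 CPM, against 743, 1278, 2192 and 1084 CPM, and the endothelial list to 148, 373, 265 and 176 CPM, against 4278, 4114, 3830.0 and 3720.0 CPM. Pericyte genes summed to 203, 190.4, 215 and 229 CPM, against 86.9, 152, 79.3 and 109 CPM, and the lymphatic endothelial list to 8.17, 14.6, 36.5 and 34.9 CPM. The chondrocyte, tendon-type and striated muscle lists each summed to at most 39.5 CPM in every library. Adipocyte sums were below the endothelial level in all 4 libraries. Among the neutrophil genes Cxcr2 and Mmp8 were at 0 in every library but AS, and of the mesothelial list 9 of 10 genes were at 0 in AS, all but Prg4. Doublet calls by simulation took 15, 1, 44 and 137 of the selected cells, or 7.39%, 0.725%, 6.63% and 20.4%, beside 9.87%, 1.77%, 5.77% and 13.1% of all kept barcodes.

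Further lists were read in the same way. For AS against the library labelled Healthy, the MHC class I genes had 3 of 6 tested genes past 2-fold lower, with a median log2 ratio of -0.83. B2m and H2-K1 were among the 3, and both were under 2-fold with TMM factors (log2 ratios -0.89 and -0.88). In both MTZ comparisons 0 were past 2-fold, with a median of 0.18 in each. Among the matricellular proteins, 16 of 19 genes reached 100 CPM, 3 of them past 2-fold higher and 6 past 2-fold lower, with a median log2 ratio of -0.28 in the same comparison. Immediate early genes, which stress and tissue digestion induce, had medians of -0.52, -0.21 and 0.48 in the 3 comparisons. The TGF-beta list had 0 of 7 genes past 2-fold in either direction for AS against the library labelled Healthy. For the universal adventitial genes, 11 of 13 genes reached 100 CPM, 1 of them past 2-fold higher and 1 past 2-fold lower, with a median log2 ratio of -0.38. H2-K1, which presents peptides to T cells, stood at 604, 297, 350.0 and 368 CPM, below the 1967, 964, 1076 and 1130.1 CPM of endothelial barcodes. Carbonic anhydrase genes, the targets of MTZ, were scarce, with 24.5, 47.6, 5.07 and 12.6 CPM of Car4 and 2.72, 11, 20.8 and 25.2 CPM of Car13, and none but Car3 was tested in any comparison. Cell cycle genes did not reach 100 CPM and were not tested.

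**Figure D5:**
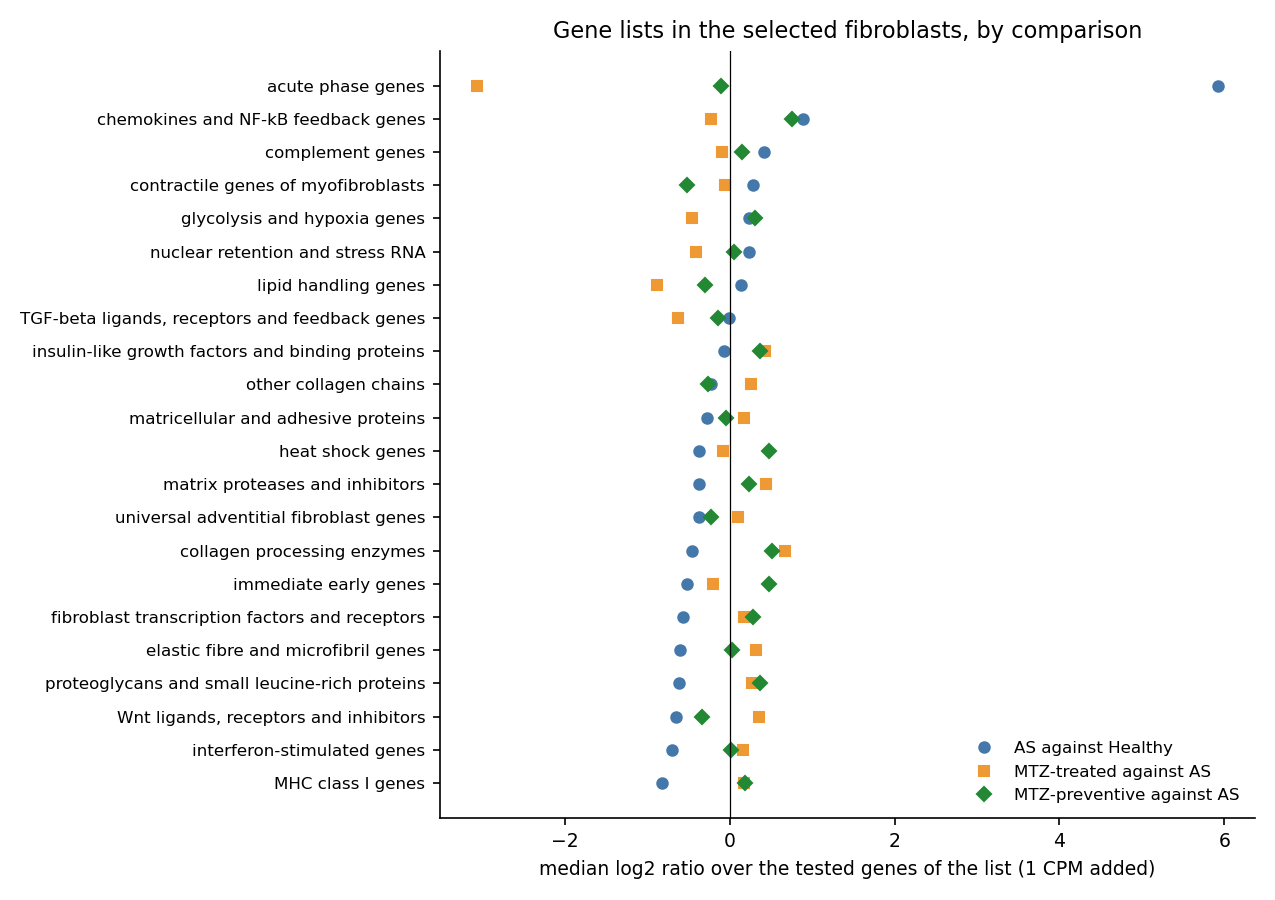
Median log2 ratio (horizontal axis, 1 CPM added) over the tested genes of each pathway list with at least 3 tested genes, for the 3 comparisons that share the AS library. Acute phase genes lie far to the right for AS against the library labelled Healthy and to the left for MTZ-treated against AS, and the elastic fibre list lies at -0.60, 0.31 and 0.03. Hp, Saa3 and Lcn2 of the acute phase list were tested in both comparisons only through their level in AS. This favoured these positions, and nothing is read from them.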

How the data were processed

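The authors deposited raw counts of UMIs per gene and barcode, made with Cell Ranger 5.0.0 per the file headers, and the submitters' processing notes name STAR and mm10. Counts of symbols on more than 1 line (38) were summed. The deposited receptor files count UMIs per contig, and only the presence of a contig on a barcode was used. Each condition has 1 gene expression library, so counts were summed over the selected cells and scaled to 1e6 (CPM), and ratios were read with exact conditional binomial intervals, levels with exact Poisson intervals and shares with Clopper-Pearson intervals. No p-value was computed. Ratios past 2-fold were counted among genes that reached 100 CPM in 1 library or the other, on the scale of log2(CPM + 1), which understates low genes. The study gives a range of cells per sample, whose ends equal the deposited barcodes of AS and MTZ-preventive. Doublets were called by simulation (2 per barcode, 0.8% per 1000 barcodes) and kept, as were shared barcodes, and both were left out as alternatives. Other alternatives were depth, marker sums, limits on cells, TMM factors, totals, weights, CPM limits and 5 CPM added, and, added after seeing the data, markers without Sfrp4, the top cell and cells rich in transcripts of other cells.

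Named genes were the 8 highest and 8 lowest of each comparison, the 10 highest and lowest against Clec3b fibroblasts, rule genes, Apoe, the 15 most abundant, the 10 most variable, and up to 4 of each of 26 pathway and 16 cell type lists by mean CPM. The members and lists were chosen with earlier results of these data known. A few of these genes, and 1 cell type list, are not reported here. Steps were tested on simulated data. Coordinates are from RefSeq's GRCm38.p6 annotation. Scripts ran in Python 3.11.15 with pandas 2.3.3, SciPy 1.17.1, NumPy 2.4.6, Matplotlib 3.10.9 and scikit-learn 1.9.0, with edgeR 4.0.16 in R 4.3.3 for TMM factors alone.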

Additional observations from a re-analysis of the deposited data

Results flagged for a closer look

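The receptor libraries, which no comparison above uses, held contigs on barcodes of the selected fibroblasts. B cell receptor contigs lay on 11 of 203 selected cells of the library labelled Healthy, 8 of 664 of MTZ-treated and 17 of 670 of MTZ-preventive, and on 0 of 138 of AS. They stood out because these files lie outside the comparisons and a fibroblast makes no B cell receptor. Of all barcodes that passed the limits on cells, 3698 of 12340, 116 of 7215, 1742 of 16316 and 34 of 2201 had such contigs in the same order, a higher share than among the selected cells in each library. T cell receptor contigs lay on 1 selected cell, of the library labelled Healthy. The selected cells carried no UMI of Ptprc by the rule. The source of these contigs was not tested.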

How the results depend on the processing

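No paired analysis was possible because each condition has 1 library. Of the alternatives chosen at the outset for the shares, gene counts and list medians, 59 left the value within its counting error or, for counts of genes, within 1.5 times and 19 moved it, and of those added after seeing the data 20 and 17. With looser limits on cells, AS had 4.95 times the share of the library labelled Healthy. That of MTZ-treated to AS was 1.51 with at least 5 marker UMIs, 1.47 over all kept barcodes and 0.574 without Sfrp4. The 233, 115 and 84 genes past 2-fold in the 3 comparisons became 563, 264 and 227 at 50 CPM, 95, 54 and 36 at 200 CPM, and 516, 227 and 229 for cells selected without Sfrp4, and the last was 129 with totals free of mitochondrial, ribosomal protein and hemoglobin genes. The elastic fibre medians of -0.60, 0.31 and 0.03 were -0.46 and 0.46 for the first 2 with TMM factors, -0.30, -0.00204 and -0.0559 with equal weight per cell, and -0.17, -0.0865 and -0.16 without Sfrp4. The first was -0.81 at 200 CPM and -0.43 without cells with over 1% of UMIs of other cell lists. The second was 0.45 without the top cell of each gene. The third was 0.19 at 50 CPM, 0.23 at 200 CPM, 0.13 without shared barcodes, 0.24 with at least 5 marker UMIs and 0.27 without the top cell. Against the Clec3b fibroblasts the collagen median in the library labelled Healthy was 0.11 without doublets, 0.0333 with at least 5 UMIs in both sets and 0.0410 after thinning. After thinning it was 0.90, 0.61 and 1.17 in the 3 high-fat libraries, and for MTZ-preventive 1.33 without doublets. Of 444 pairs of a named gene and a comparison, 140 were past 2-fold and 94 were so under every alternative run. Those that changed sign were Car3 and Thrsp in MTZ-treated against AS (-0.48 and -1.31 without cells with over 1% of UMIs of other cell lists, -1.13 and -2.03 without Sfrp4), Eln in MTZ-preventive against AS (0.26 with at least 5 marker UMIs), and Ifitm1 and Lcn2 in that comparison (0.42 and 0.0461 without cells with over 1% of UMIs of other cell lists). The causes were not tested. Leaving out all cells with a UMI of other cell lists was not run, because 7 cells of AS remained, whose limit for a count of 0 was above 100 CPM. AS, the shallowest library, limits every comparison.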

Other observations

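Further lists cover genes of protein turnover, growth factor binding and metabolism in the selected fibroblasts. Counts of genes past 2-fold are given in the order of the 3 comparisons above, among genes that reached 100 CPM. For matrix proteases and their inhibitors they were 1 higher and 1 lower of 13, 2 higher and 0 lower of 13 and 2 higher and 0 lower of 13, with median log2 ratios of -0.37, 0.44 and 0.23. Timp2, which inhibits matrix metalloproteinases as Timp1 does, stood at 1485 CPM in the library labelled Healthy and 992, 1385 and 898 CPM in AS, MTZ-treated and MTZ-preventive, and the lysosomal protease gene Ctsl at 1113, 860.5, 898 and 1007 CPM. For the insulin-like growth factors and their binding proteins the counts were 0 higher and 1 lower of 5, 1 higher and 0 lower of 5 and 1 higher and 0 lower of 5, with medians of -0.07, 0.43 and 0.37, and Igfbp6 stood at 2563 CPM in the library labelled Healthy and 2677, 5323 and 2409 CPM in AS, MTZ-treated and MTZ-preventive. Interferon-stimulated genes gave 1 higher and 2 lower of 9, 1 higher and 2 lower of 7 and 1 higher and 1 lower of 7, with medians of -0.70, 0.16 and 0.01.

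Heat shock genes gave 0 higher and 2 lower of 10, 0 higher and 0 lower of 8 and 0 higher and 0 lower of 10, with medians of -0.37, -0.08 and 0.48. Hspa5, the chaperone of the endoplasmic reticulum through which secreted proteins pass, stood at 641 CPM in the library labelled Healthy and 531, 477 and 739 CPM in AS, MTZ-treated and MTZ-preventive. Glycolysis and hypoxia genes gave 1 higher and 1 lower of 9, 0 higher and 1 lower of 8 and 0 higher and 0 lower of 9, with medians of 0.24, -0.46 and 0.31, and Ldha, which makes lactate, stood at 289.9 CPM in the library labelled Healthy and 443, 312 and 431 CPM in AS, MTZ-treated and MTZ-preventive. Lipid handling genes gave 2 higher and 1 lower of 5, 0 higher and 2 lower of 5 and 1 higher and 0 lower of 5, with medians of 0.14, -0.88 and -0.30. Lpl, which splits the fat of lipoproteins, stood at 57.2 CPM in the library labelled Healthy and 139, 34 and 72.3 CPM in AS, MTZ-treated and MTZ-preventive, below the 238, 770.2, 69.3 and 344 CPM of endothelial barcodes. Serpinh1, the chaperone of collagen folding, stood at 2018 CPM in the library labelled Healthy and 999.6, 1833 and 1494 CPM in AS, MTZ-treated and MTZ-preventive, so AS was lowest, and Pcolce, which speeds the trimming of collagen, at 1106, 787, 1831 and 1075 CPM.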
